A study of Danio rerio with 4 samples.

Results

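The baseline transcriptome of the zebrafish retina at 48 hours post fertilization (hpf) was described from 2 of the 4 libraries of the series, those that the labels place in the control group. The control retinas came from fish given the Id2aMM morpholino, a synthetic antisense oligonucleotide, so the baseline is that of morpholino-treated retinas. The labels do not say how Id2aMM differs from the id2a morpholino of the other 2 libraries. The values of those libraries were used here only to work out transcript lengths, and so also which genes have a level. Both control libraries were poly-A selected from 1 microgram of total RNA of dissected retinas. The labels give no strain and no number of embryos per library.

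The retina forms from an epithelium of dividing progenitors, which leave the cell cycle to become ganglion, amacrine, horizontal, bipolar and photoreceptor cells and, among the last, Muller glia. Each class is specified by transcription factors, and later makes the transmitter enzymes, synaptic proteins and light-response proteins that it works with. At the rim of the fish retina, the ciliary margin goes on producing neurons as the eye grows. The lens, the pigment epithelium, the surface epithelium and the periocular mesenchyme lie against the retina and can be carried along in a dissection.

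A level is the number of reads of 1 mate, split over the transcripts that each read hits, per kilobase of transcript and per 1000000 split reads (RPKM), summed over the transcripts of a gene. Where a pair of values is given, the first is control replicate 1 and the second control replicate 2. The libraries held 25326402 and 28348007 split reads, with 1.98 and 1.89 transcript hits per read. A gene is called abundant at 100 RPKM or more in both libraries, moderate at 1 RPKM or more in both, low under 1 RPKM in both, mixed where the libraries fall on either side of 1 RPKM, and not detected at 0 reads in both. Of 24506 genes with a level, 792 (3.23%) were abundant, 14082 (57.5%) moderate, 1534 (6.26%) mixed, 7827 (31.9%) low and 271 (1.11%) not detected. Thus 60.7% of the genes with a level, called all genes below, were at 1 RPKM or more in both libraries. Of them 33.0% were low or not detected. The 60.7% and 33.0% are the shares to set beside the counts of each list. The 4 libraries held 26355 genes, and those without a transcript length are outside these shares. Of the 26355, 25392 had reads of 1 mate in a control library, so more genes than the 271 had none. The median gene stood at 2.65 RPKM, with quartiles at 0.417 and 11.6 RPKM, and 98 genes reached 1000 RPKM in both libraries. For 7992 genes (32.6%), part of the reads also hit other genes, and their levels are uncertain. The design text calls the replicates biological, and nothing says which fish they came from. With 2 libraries in 1 group there is no contrast and no test, and the error of each level is the distance between its values.

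The control libraries were alike for most genes and differed in some gene groups. Across the 15698 genes with a mean of at least 1 RPKM and reads in both, which are not independent of each other, log2 levels correlated at 0.960 (Pearson) and levels at 0.958 (Spearman). The median absolute difference was 0.32 on the log2 scale, and 672 genes were over 2-fold higher in replicate 1 and 492 in replicate 2. Most lists of differentiated neurons had most members higher in replicate 1, while cell cycle, epidermal and mesenchymal genes were mostly higher in replicate 2. The cone phototransduction list was an exception. Of its 13 members with a mean of at least 1 RPKM, 5 were higher in replicate 1 and 8 in replicate 2. The median log2 ratio of replicate 1 to replicate 2 was 0.72 for synapse and excitability genes, with 31 of 34 members higher in replicate 1, and -0.31 for cell cycle genes, with 22 of 28 higher in replicate 2. Over the 15698 genes it was -0.04, with 7301 of them higher in replicate 1, the count to set beside those of the lists. The part that this difference plays in any level was not tested, and the direction is given beside the groups that leaned most.

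**Figure D1:**
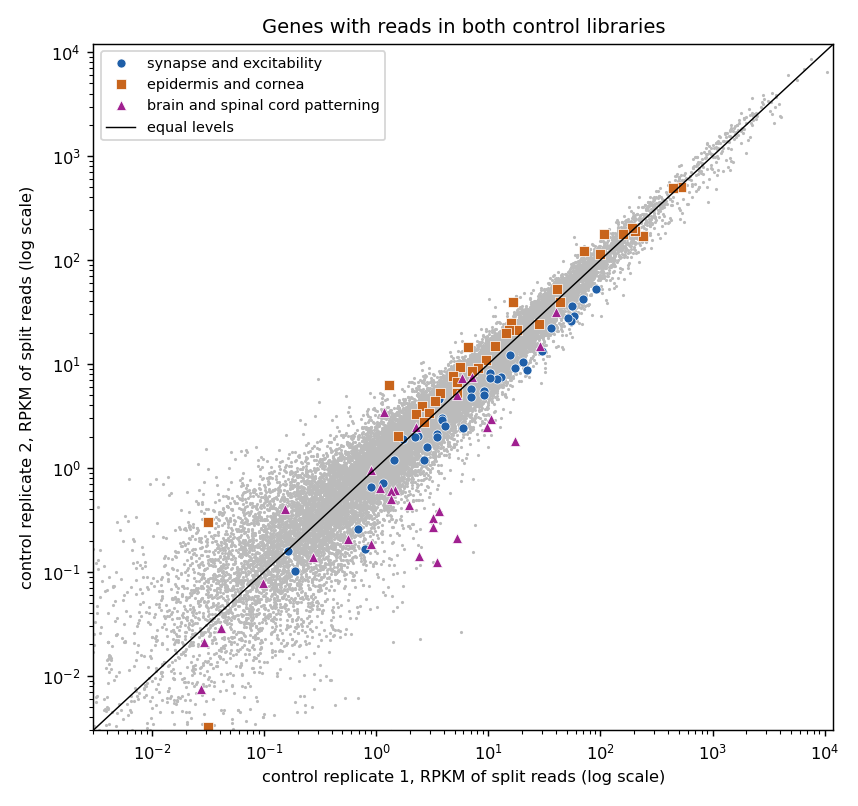
Level of each gene in control replicate 1 (x axis) against control replicate 2 (y axis), in RPKM on log axes; grey points are all genes with reads in both libraries, coloured symbols are 3 gene lists and the line marks equal levels. Most synapse and excitability genes lie below the line, most epidermis and cornea genes above it, and a group of brain and spinal cord patterning genes lies far below it.

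The libraries carried the transcripts that mark retina. The retinal homeobox genes rx1 (33.9 and 37.1 RPKM) and rx2 (33.0 and 31.8 RPKM) and the eye-field gene pax6a (381 and 366 RPKM) were far above the median gene in both libraries. By list median, cell cycle genes, which are not particular to retina, came first at 111 RPKM. Retinal lists filled the next ranks, down to 11.8 RPKM for amacrine cell genes, and ganglion cell genes stood at 11.3 RPKM. At the bottom stood germ line genes at 0.0940 RPKM and liver, gut and pancreas genes at 0.307 RPKM. Transcripts of neighbouring tissues were present at levels like those of retinal classes, with medians of 11.8 RPKM for epidermis and cornea, 11.3 RPKM for lens and 9.98 RPKM for periocular mesenchyme. In RNA from whole tissue, few cells of a type and little RNA per cell cannot be told apart.

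**Figure D2:**
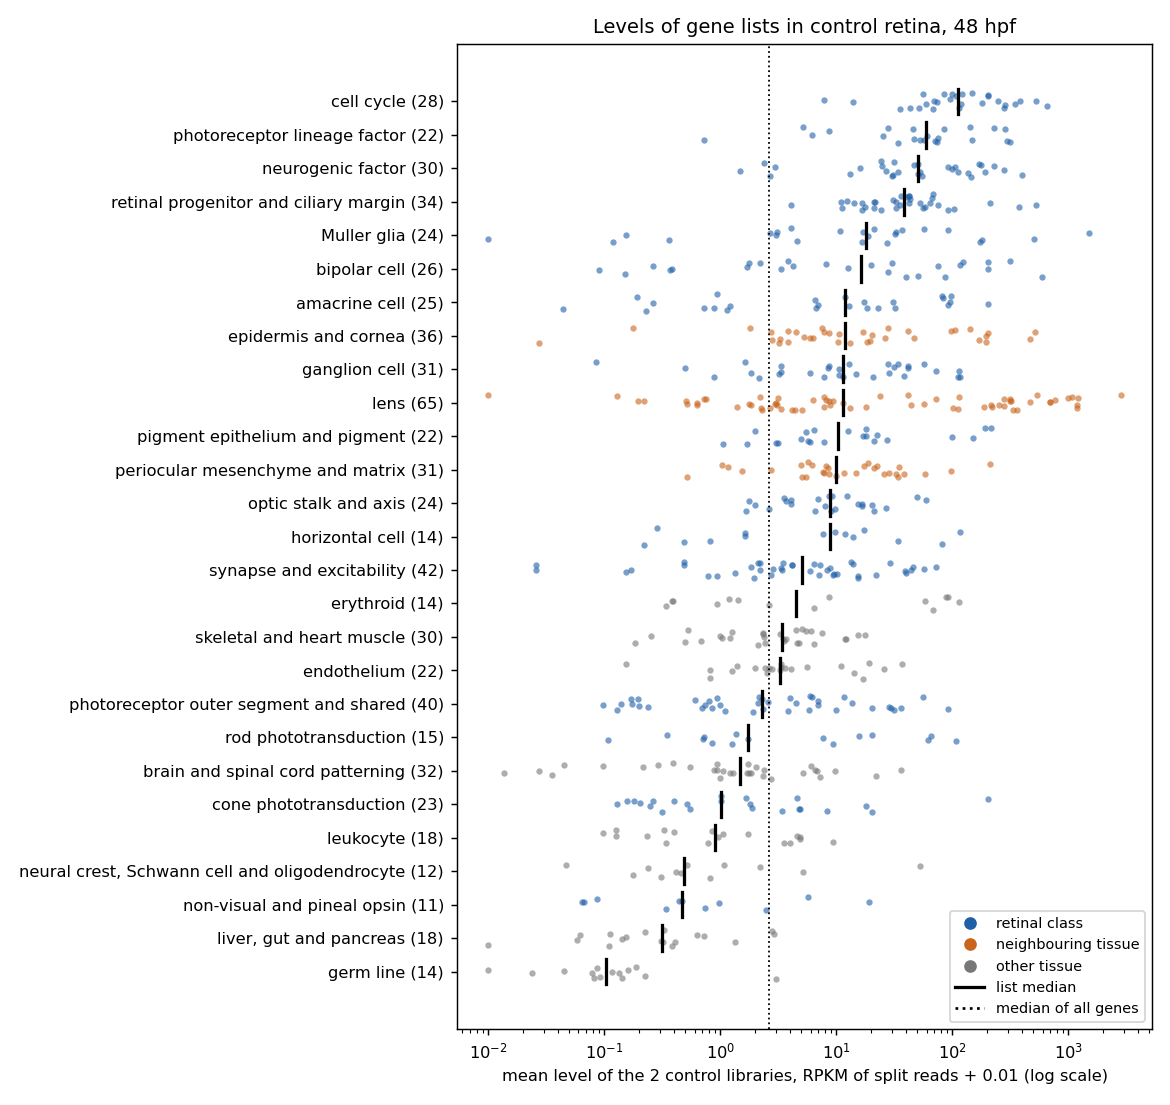
Mean level of the 2 control libraries for every member of 27 gene lists, in RPKM plus 0.01 on a log axis, with the number of members in brackets; black bars are list medians and the dotted line is the median of all genes (2.65 RPKM). Cell cycle, photoreceptor lineage and neurogenic factors lie highest, while the cone list and the rod list lie below or near the median of all genes.

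The most abundant transcripts were those of growth and chromatin rather than of any retinal class. The 25 highest genes with a symbol included 6 for cytosolic ribosomal proteins, 4 encoded by the mitochondrial genome, 4 for high mobility group proteins, which bind DNA and nucleosomes, and 1 lens crystallin. Prothymosin alpha b, ptmab, stood first at 10593 and 6386 RPKM, a chromatin-associated acidic protein of proliferating cells. The mitochondrial cytochrome oxidase gene mt-co2 followed at 7595 and 8689 RPKM, and hmga1a, an architectural chromatin protein, at 6555 and 6855 RPKM. The range of ptmab takes in both of the others, so it cannot be ranked against them, while both libraries of mt-co2 lay above both of hmga1a.

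Translation and protein folding filled much of the rest of the top. The elongation factor ef1a stood at 4725 and 6029 RPKM, RPL37A at 3703 and 3834 RPKM, and the chaperones hspa8 and hsp90ab1 at 3692 and 3705 RPKM and at 3951 and 3147 RPKM. Of 79 cytosolic ribosomal protein genes, 76 were abundant, and together they took 7.29% and 8.16% of the split reads. The 13 genes encoded by mitochondrial DNA were all abundant, from 449 to 8142 RPKM on average, and took 2.82% and 3.12%. High mobility group genes took 2.59% and 2.5% through 8 abundant members of 12. The nucleosome binder hmgn2 was at 2812 and 3898 RPKM, hmgb2b at 3990 and 2417 RPKM, and hmgb2a, which shares reads with another gene, at 3360 and 2525 RPKM. The remaining genes of the 25 highest included the RNA-binding proteins cirbp (3148 and 3419 RPKM) and hnrnpab (3591 and 2976 RPKM) and the elongation factor eef2b (2463 and 2583 RPKM). The 100 highest genes of each library took 21.6% and 21.5% of its reads, and 88 genes were among them in both.

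Cell cycle genes, which are not particular to retina, had the highest median of the lists. The part of neighbouring tissues in their levels was not tested. All 28 cell cycle genes were at 1 RPKM or more in both libraries, 13 of them abundant, whereas 60.7% of all genes reached that level and 3.23% were abundant. The replication clamp pcna stood at 502 and 807 RPKM, rank 167 of all genes, and the G1 cyclin ccnd1 at 461 and 583 RPKM. The subunits of ribonucleotide reductase rrm1 and rrm2, which make deoxynucleotides, were at 299 and 401 RPKM and at 239 and 322 RPKM, the latter with shared reads. Genes of mitosis were found at similar levels. The proliferation marker mki67 was at 197 and 210 RPKM, the mitotic kinase cdk1 at 144 and 151 RPKM, and INCENP, a subunit of the chromosomal passenger complex, at 515 and 248 RPKM. The helicase subunit mcm5 was lower, at 61.9 and 86.6 RPKM. INCENP was higher in replicate 1, against the direction of most of its list.

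Retinal progenitor and ciliary margin genes with a level were present without exception. All 34 were at 1 RPKM or more in both libraries, with a median of 38.2 RPKM, 3 of them abundant. The eye-field factors pax6a and pax6b were at 381 and 366 RPKM and at 239 and 187 RPKM, and both copies of six3 and six6b ranged from 41.9 to 103 RPKM on average. The progenitor factor sox2 was at 74.9 and 62.8 RPKM. Notch receptors, which hold progenitors undifferentiated, were at 53.3 and 63.7 RPKM for notch1a, with shared reads, 37.3 and 43.9 RPKM for notch1b and 34.3 and 51.6 RPKM for notch3. The ciliary margin gene col15a1b stood at 46.1 and 39.4 RPKM. The libraries did not lean one way for this list, with 19 members higher in replicate 1 and 15 in replicate 2. The lowest member, tbx5a, a dorsal retina factor, was at 3.90 and 4.28 RPKM.

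The neurogenic list, which holds factors that drive progenitors out of the cycle, had a higher median than the progenitor and ciliary margin list. Of 30 members, 29 were at 1 RPKM or more in both libraries and 9 were abundant, with a median of 50.8 RPKM. The helix-loop-helix factors neurod4 and neurod were at 432 and 370 RPKM and at 280 and 174 RPKM. The neuronal RNA-binding protein elavl3, switched on as neurons form, was at 314 and 244 RPKM. atoh7, which ganglion cell formation depends on, was at 80.6 and 129 RPKM, and ascl1a, a proneural factor, at 24.4 and 24.4 RPKM. The transcripts of factors from both early and later steps of neurogenesis were thus found side by side in the same tissue. Delta ligands of the Notch receptors ranged from 29.6 RPKM for dld in replicate 2 to 107 RPKM for dlc in replicate 2. The lowest were neurod6a, neurod2 and neurod6b, factors of forebrain neurons that amacrine cells also use, at 0.603 to 3.33 RPKM over the libraries.

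Ganglion cells, whose axons form the optic nerve, were represented by both their factors and their axonal genes. Of 31 members, 27 were at 1 RPKM or more in both libraries, with a median of 11.3 RPKM. The LIM factor isl1, which bipolar, amacrine and horizontal cells also use, was at 132 and 103 RPKM. The more restricted isl2b was at 45.1 and 31.6 RPKM, pou4f2 at 38.6 and 29.6 RPKM and pou4f1 at 15.6 and 7.05 RPKM. Axon growth genes reached the level of isl1. The growth cone protein gap43 stood at 163 and 65 RPKM and the microtubule regulator stmn2b at 133 and 92.4 RPKM. Neurofilament genes were much lower, except inab, an internexin, at 31.0 and 24.4 RPKM: nefm was at 5.67 and 0.749 RPKM. Members were mostly higher in replicate 1, in 25 of 28 with a mean of at least 1 RPKM, by a median log2 ratio of 0.52. Hox transcripts were higher in the same library, by 11.3 times in sum, and so were most bipolar cell genes. The ganglion cell markers rbpms2a and rbpms2b were not matched to a gene of the files.

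Amacrine cells, inhibitory interneurons of the inner retina, were represented by their transcription factors more than by their transmitter genes. Of 25 members, 16 were at 1 RPKM or more in both libraries, 5 were mixed and 4 were low, a share of 64% at 1 RPKM or more, near the 60.7% of all genes. The AP-2 factors tfap2a and tfap2b were at 238 and 171 RPKM and at 99.4 and 66.6 RPKM, and ptf1a, which inhibitory retinal neurons require, was at 27.5 and 34.7 RPKM. The tfap2a gene is also transcribed in epidermis and neural crest. Genes for making GABA spread widely: gad2 was at 19.9 and 16.9 RPKM, gad1b at 7.34 and 5.90 RPKM and gad1a at 0.407 and 0.0302 RPKM, with the vesicular transporter slc32a1 at 21.8 and 13.1 RPKM. The glycine transporter slc6a9 was at 24.3 and 21.6 RPKM.

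Genes of amacrine subtypes were divided. The calcium-binding protein genes calb2b, calb2a and pvalb6 were at 131 and 60.8 RPKM, 15.5 and 10.4 RPKM, and 9.41 and 3.71 RPKM. Transmitter and peptide genes of subtypes were lower. The dopamine enzyme th was at 0.259 and 0.101 RPKM, from 9 and 4 reads, and the nitric oxide synthase nos1 at 0.0441 and 0.0236 RPKM. The neuropeptide genes vip and sst1.1 were at 2.13 and 0.286 RPKM and at 1.70 and 0.0508 RPKM, so each lay above 1 RPKM in replicate 1 only. slc6a5, a transporter of glycinergic neurons, was at 1.31 and 0.117 RPKM with shared reads. Of the 18 amacrine members with a mean of at least 1 RPKM, 17 were higher in replicate 1. The median over transcription factors was 81.4 RPKM (9 genes), against 1.17 RPKM over the other members (16 genes), a division made after the values had been seen.

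Horizontal cells, interneurons of the outer retina, followed the same division. The factor onecut1 stood at 33.1 and 35.5 RPKM and lhx1a at 13.2 and 10.4 RPKM, both in ranges that did not overlap with each other. The connexins through which horizontal cells couple were at the lower end of the list: cx52.6 at 0.279 and 0.274 RPKM from 10 and 11 reads, cx52.7 at 0.249 and 0.173 RPKM, and cx52.9 at 1.99 and 1.28 RPKM. The median was 15.8 RPKM over 8 transcription factors and 1.05 RPKM over the 6 other members. Of the 14 members, 10 (71.4%) were at 1 RPKM or more in both libraries, against 60.7% of all genes, and 3 were low. Of 10 members with a mean of at least 1 RPKM, 8 were higher in replicate 1. The markers prox1a and cx55.5 were not matched to a gene of the files, and the related prox1b was at 11.5 and 8.05 RPKM.

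Bipolar cells, which carry signals from photoreceptors to the inner retina, had the most abundant class factor on the lists. vsx1 stood at 718 and 461 RPKM, rank 181 of all genes, and its lowest library lay above the highest library of the marker next in order, neurod4. Otx2, shared with photoreceptors and pigment epithelium, was at 324 and 303 RPKM. Some signalling genes of bipolar cells were abundant too. The G-protein subunits gnb3a, which cones also use, and gng13b were at 280 and 129 RPKM and at 258 and 150 RPKM. The alpha subunit of the ON bipolar response, gnao1a, which is not particular to bipolar cells, was at 135 and 112 RPKM. The end of that pathway was lower: the channel gene trpm1b was at 13.6 and 11.8 RPKM, rgs11 at 4.63 and 3.01 RPKM, and nyx, an organiser of the receptor complex, at 0.158 and 0.125 RPKM from 9 and 8 reads. Calcium-binding cabp5a was at 4.23 and 2.4 RPKM, with shared reads, and cabp5b at 0.349 and 0.392 RPKM. Of 26 members, 21 were at 1 RPKM or more in both libraries, and all 21 with a mean of at least 1 RPKM were higher in replicate 1. The receptor genes grm6a and grm6b and the channel copy trpm1a were not matched to a gene of the files.

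**Figure D3:**
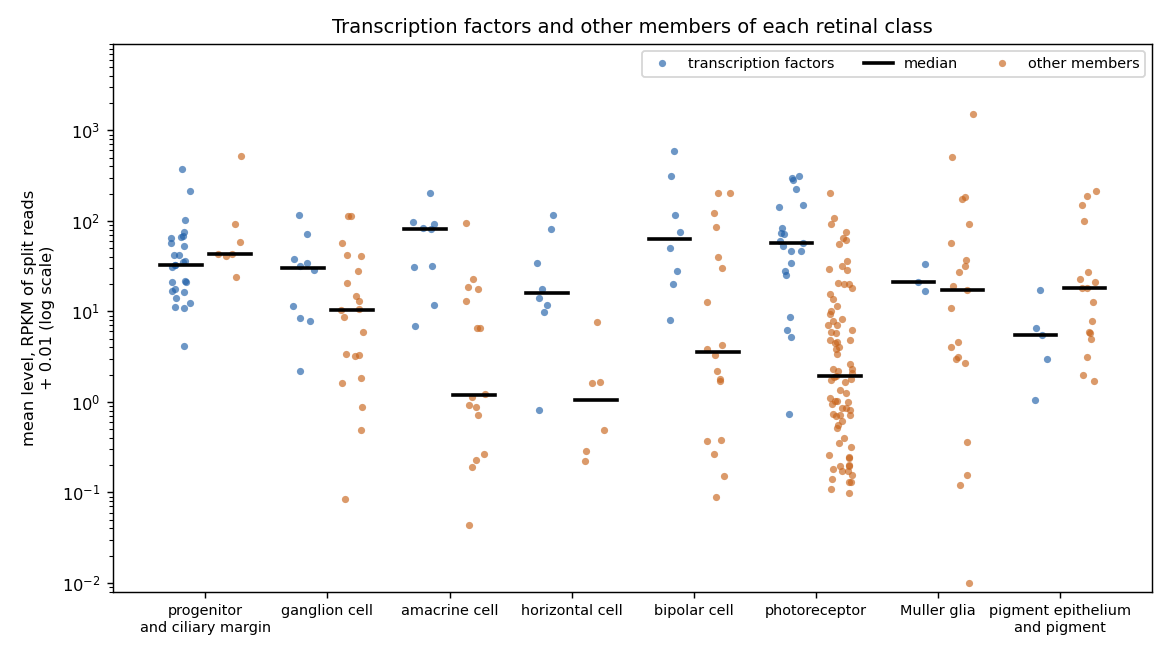
Mean level of the 2 control libraries for transcription factors (blue) and other members (orange) of each retinal class, in RPKM plus 0.01 on a log axis; black bars are medians. In amacrine, horizontal, bipolar and photoreceptor lists the median of the factors lies above that of the other members. It is 81.4 against 1.17 RPKM in amacrine cells and 15.8 against 1.05 RPKM in horizontal cells. It also lies above in ganglion cells (30.1 against 10.4 RPKM) and Muller glia (21.0 against 17.1 RPKM). In pigment epithelium and in the progenitor and ciliary margin list (32.6 against 43.0 RPKM) it lies below.

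Photoreceptor lists were also divided between factors and the genes of the working cell. Over the 21 transcription factors of the photoreceptor lists, the median was 57.5 RPKM and 20 were at 1 RPKM or more in both libraries. Of the lineage factors with a mean of at least 1 RPKM, 16 of 21 were higher in replicate 1. Over the 79 other members the median was 1.91 RPKM and 44 reached 1 RPKM in both. That share is near and below the 60.7% of all genes, whose median was 2.65 RPKM. The homeobox factors crx, otx5 and otx2, which switch on photoreceptor genes, stood at 353 and 214 RPKM, 352 and 243 RPKM, and 324 and 303 RPKM. Their ranges overlap, so they cannot be ranked. prdm1a, a repressor of the bipolar fate in photoreceptors of the mouse, was at 63.8 and 51.3 RPKM.

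Factors that split rods from cones were lower and unequal. nr2e3, which represses cone genes in rods, was at 51.0 and 54.3 RPKM, whereas nrl, the rod factor upstream of it in mouse, was at 7.50 and 2.91 RPKM. On the cone side, thrb, the thyroid receptor of red cones, was at 63.3 and 78.4 RPKM and tbx2b, a factor of ultraviolet cones in zebrafish, at 78.4 and 89.6 RPKM. six7 and foxq2, factors of green and blue cones in zebrafish, were at 49.0 and 43.2 RPKM and at 52.2 and 41.8 RPKM. The lowest library of each of these cone factors lay above the highest library of nrl.

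Rhodopsin led the visual opsins. rho, the rod pigment gene on chromosome 8, was at 62.7 and 60.3 RPKM from 2424 and 2611 split reads, rank 1432 of all genes. The red cone opsin opn1lw2 on chromosome 11 came next at 8.13 and 8.40 RPKM, and the ultraviolet opsin opn1sw1 on chromosome 4 at 2.93 and 3.81 RPKM. The blue opsin opn1sw2 on chromosome 11 was at 1.48 and 0.524 RPKM, from 53 and 21 reads. These 4 genes stood in that order in both libraries without overlap.

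Other cone opsins were under 1 RPKM. opn1mw1, a green opsin on chromosome 6 that the reference list names opn1mw2, was at 0.192 and 0.103 RPKM from 12 and 5 reads. opn1lw1 and opn1mw4 were at 0.492 and 0.525 RPKM and at 0.223 and 0.249 RPKM, and both share reads with neighbouring copies, so their levels are uncertain. No level could be given for opn1mw3, which had no transcript length. The lowest library of opn1sw2 lay above both libraries of opn1mw1 and opn1mw4, but not above opn1lw1.

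The opsins did not set the level of the rest of phototransduction. The arrestins that quench the light response stood at 17.8 and 22.6 RPKM for the cone gene arr3a and at 20.0 and 20.5 RPKM for the rod gene sagb, whose copy saga, with shared reads, was at 11.8 and 6.84 RPKM. Arr3a was thus above every cone opsin in both libraries. Of the transducin alpha subunits, rod gnat1 was at 7.22 and 8.23 RPKM and cone gnat2 at 2.02 and 1.69 RPKM. The rod alpha subunit was above the cone alpha subunit in both libraries. The gamma subunits did not follow that order. Rod gngt1 was at 16.0 and 15.4 RPKM and cone gngt2a at 19.99 and 15.95 RPKM, in ranges that overlapped, with cone gngt2b at 4.40 and 5.12 RPKM. Channel subunits of cones were at 4.59 and 4.64 RPKM for cnga3a and, with shared reads, at 6.30 and 3.33 RPKM for cngb3. Several other effector genes were under 1 RPKM. Rod pde6b was at 0.638 and 0.760 RPKM with shared reads, cone pde6c at 0.339 and 0.746 RPKM, the rod channel subunit cnga1 at 0.980 and 0.714 RPKM and the cone opsin kinase grk7a at 0.273 and 0.510 RPKM. Guanylate cyclase activators guca1c and guca1e were at or under 0.232 RPKM in both libraries.

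**Figure D4:**
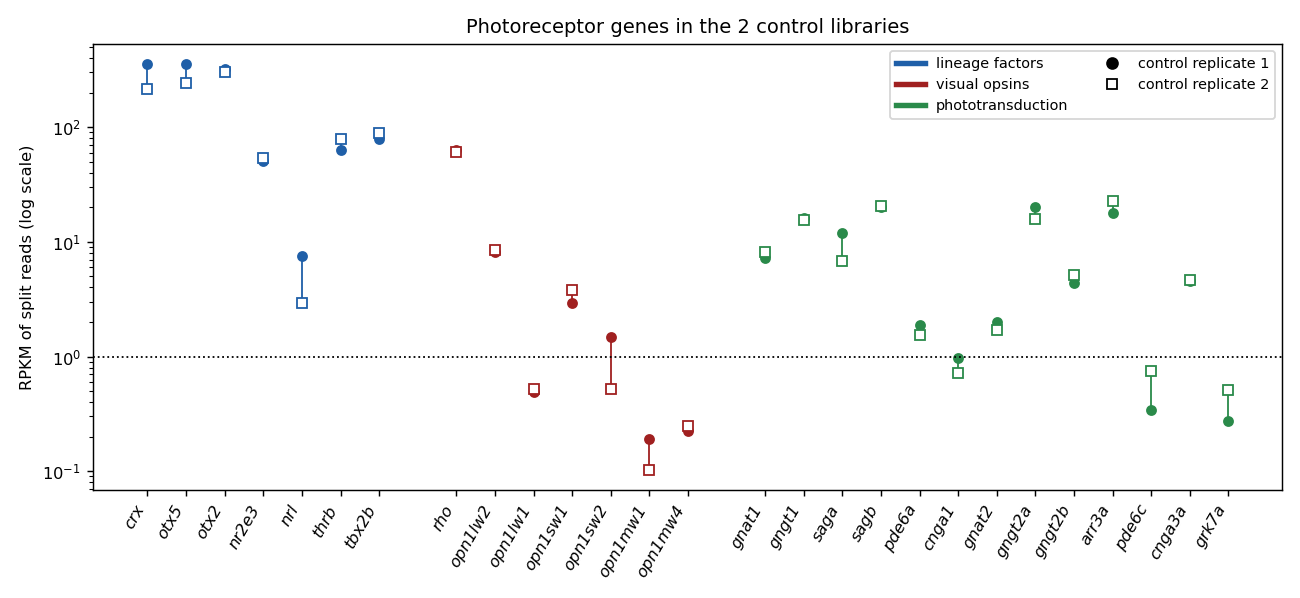
Levels of photoreceptor lineage factors (blue), visual opsins (red) and phototransduction genes (green) in control replicate 1 (filled circles) and replicate 2 (open squares), in RPKM on a log axis; the dotted line marks 1 RPKM. Of the 7 lineage factors plotted, nrl alone lies below 50 RPKM, rho is the only opsin above 10 RPKM, and phototransduction genes spread on both sides of 1 RPKM.

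By list, rod phototransduction had 10 of 15 members (66.7%) at 1 RPKM or more in both libraries and a median of 1.72 RPKM, and cone phototransduction 10 of 23 (43.5%) and a median of 1.00 RPKM, against 60.7% and 2.65 RPKM over all genes. The highest members of the rod list were gnb1b and gnb1a, beta subunits that many cells use, at 111 and 106 RPKM, with shared reads, and at 68.7 and 62.3 RPKM. Outer segment and shared photoreceptor genes had 23 of 40 members (57.5%) at 1 RPKM or more and a median of 2.3 RPKM. Within that list the transport protein gene tulp1a stood at 131 and 53.6 RPKM, the adhesion protein gene rs1a at 70.2 and 40.6 RPKM and the recoverin gene rcvrn2 at 43.9 and 28.0 RPKM. These members were higher in replicate 1, as were 19 of the 25 with a mean of at least 1 RPKM. Proteins of the disc rim and the matrix around the outer segment were lower. The peripherin genes prph2b and prph2a were at 1.43 and 0.736 RPKM and at 0.0791 and 0.297 RPKM, and rbp3, the retinoid carrier of that matrix, at 0.829 and 0.638 RPKM. cplx4a, a complexin of the ribbon synapse, was at 2.58 and 1.73 RPKM.

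Non-visual and pineal opsins were mostly low, with 7 of 11 members under 1 RPKM in both libraries. The exceptions were the RGR opsins, of the pigment epithelium and Muller glia in mammals: rgrb at 22.7 and 16.0 RPKM and rgra at 5.05 and 6.36 RPKM, and peropsin, rrh, at 2.79 and 2.2 RPKM. Melanopsin opn4a was at 0.0605 and 0.0527 RPKM. The pineal opsin exorh was not matched to a gene of the files.

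Genes of synapses and excitability were already present across the list. Of 42 members, 34 were at 1 RPKM or more in both libraries and none was abundant, with a median of 5.04 RPKM. The release machinery was highest: vamp2 at 91.8 and 52.5 RPKM, snap25b at 70.5 and 42.6 RPKM and synaptophysin sypb at 36.0 and 22.0 RPKM. Their copies snap25a and sypa were at 30.3 and 13.4 RPKM and at 17.4 and 9.13 RPKM. Every one of these was higher in replicate 1, where most Hox and bipolar cell transcripts were also higher. The gene ctbp2, which codes for a ribbon synapse protein and for a corepressor not particular to synapses, was at 55.4 and 36.1 RPKM. That level is summed over its transcripts. It was 5.11 RPKM on average with the most abundant transcript alone and 155 RPKM with each hit counted in full. The gene cplx3b, a complexin of ribbon synapses, was at 54.8 and 25.7 RPKM. Vesicular glutamate transporters were lower and differed by copy. slc17a6b, of ganglion cells, was at 7.02 and 5.76 RPKM, slc17a7, of bipolar cells and photoreceptors, at 7.78 and 8.87 RPKM, and slc17a6a at 0.692 and 0.256 RPKM.

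Members of the Muller glia list ranged from among the most abundant in the retina to 0, and the highest of them are not particular to glia. fabp7a, a fatty acid-binding protein of glia and of neural progenitors, stood at 1435 and 1564 RPKM, rank 71 of all genes. The growth factor gene mdka was at 527 and 483 RPKM and mdkb at 224 and 140 RPKM, and neither is particular to Muller glia. Other list members were lower: the retinoid carrier rlbp1a at 69.3 and 44.5 RPKM, the glutamate transporter slc1a2b at 45.6 and 28.6 RPKM and glutamine synthetase glula at 17.9 and 19.9 RPKM. The copy glulb was higher than glula, at 85.7 and 97.7 RPKM. The copy rlbp1b, placed on a photoreceptor list, was at 33.3 and 26.0 RPKM. Pigment epithelium genes were also in the libraries, and whether rlbp1a transcripts came from glia or from pigment epithelium was not tested. The glial filament gene gfap was at 2.23 and 3.78 RPKM. Of 24 members, 20 were at 1 RPKM or more in both libraries, and aldoca was at 0 reads, which allows levels of up to 0.0497 and 0.0444 RPKM from 3 reads a library. The channel gene kcnj10a was not matched to a gene of the files.

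Pigment genes were present too, although the labels name retina alone. All 22 members with a level were at 1 RPKM or more in both libraries, with a median of 10.3 RPKM. For tyrp1a, rab38 and rab32 no level could be given. Melanin and melanosome genes were highest: tyrp1b at 213 and 220 RPKM, dct at 190 and 189 RPKM and pmela at 99.6 and 97.9 RPKM. Tyrosinase, tyr, was at 18.6 and 17.7 RPKM. Among visual cycle genes, specific to the epithelium rather than to pigment cells at large, the isomerase rpe65a was at 35.8 and 18.8 RPKM and rdh5 at 6.68 and 5.26 RPKM. The pigment cell factor mitfa was at 6.70 and 6.23 RPKM. The libraries did not lean one way, with 12 members higher in replicate 1 and 10 in replicate 2.

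Genes of the optic stalk and of the retinal axes that had a level were moderate without exception. All 24 members fell between 1 and 100 RPKM in both libraries, with a median of 8.80 RPKM. The stalk factors vax1 and pax2a, both with shared reads, were at 16.4 and 14.3 RPKM and at 10.1 and 5.80 RPKM. Dorsal efnb2a, a guidance ligand, was at 59.3 and 59.6 RPKM, and its ventral counterpart ephb3a, a receptor, at 18.4 and 21.9 RPKM. Enzymes that make and clear retinoic acid were both found, rdh10a at 41.9 and 56.8 RPKM, aldh1a2 at 28.2 and 25.7 RPKM and cyp26c1 at 10.4 and 14.3 RPKM.

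Among the neighbouring tissues, the lens list had the most abundant members. Of 65 members, 54 (83.1%) were at 1 RPKM or more in both libraries and 23 were abundant. The epidermis and cornea list had a larger share at 1 RPKM or more (94.4%) and a slightly higher median. Crystallins, the soluble proteins of lens fibres, took 1.49% of the reads in replicate 1 and 0.967% in replicate 2 over 51 genes. Most of this came from gamma-M crystallin copies, which share reads: si:ch211-212n6.17, crygm2d10 in the reference list, was at 3571 and 2102 RPKM and crygm2d3 at 1537 and 884 RPKM. The 17 crygm2d copies were all higher in replicate 1, with a summed level of 16211 against 9683 RPKM.

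Most lens genes outside the gamma-M family were higher in replicate 2. This held for 29 of those 35 members, with 5 higher in replicate 1, a grouping made after the values had been seen. Their summed level was 2323 against 2302 RPKM, since the abundant cryba2b (825 and 562 RPKM) and cryba2a (367 and 266 RPKM) were higher in replicate 1. Beta crystallins crybb1 and cryba1b were at 57.6 and 166 RPKM and at 60.7 and 143 RPKM, the lens water channel mipa at 9.93 and 16.2 RPKM and the filament gene bfsp2 at 5.68 and 12.9 RPKM. In all of these the libraries were over 1.5 times apart. The alpha crystallin cryaa was at 1.60 and 4.29 RPKM with shared reads, and the lens factor foxe3 was at 0.264 and 0.749 RPKM. mipb, with shared reads, was at 5.85 and 16.8 RPKM and the fibre connexin cx44.1 at 1.25 and 2.29 RPKM. crygs1 was at 0 reads in both, which allows up to 0.161 and 0.144 RPKM.

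Surface epithelium was also represented. Of 36 epidermis and cornea genes, 34 were at 1 RPKM or more in both libraries. Keratin krt4 stood at 527 and 505 RPKM, krt5 at 190 and 201 RPKM, and cyt1 at 446 and 492 RPKM with shared reads. Junction genes were much lower, with epcam at 16.5 and 39.3 RPKM, ppl at 17.9 and 21.2 RPKM and cdh1 at 4.86 and 7.65 RPKM with shared reads. The basal epidermal factor tp63 was at 3.32 and 4.37 RPKM. Members were mostly higher in replicate 2, in 29 of 34 with a mean of at least 1 RPKM. The marker krtt1c19e was not matched to a gene of the files.

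Periocular mesenchyme and matrix genes leaned the same way. Of 31 members, 27 were at 1 RPKM or more in both libraries, and 26 of 30 with a mean of at least 1 RPKM were higher in replicate 2. The matrix protein gene sparc was at 177 and 249 RPKM, and the collagens col2a1a, col1a1a and col1a2 at 69.6 and 127 RPKM, 45.7 and 70.1 RPKM, and 29.4 and 39.3 RPKM. The mesenchyme factor foxc1a, with shared reads, was at 15.3 and 19.6 RPKM. In each of these, replicate 2 was the higher.

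Blood and vessels left moderate signals. Globin genes took 0.0255% and 0.0233% of the reads, with hbae3 at 102 and 82.9 RPKM and hbbe3 at 6.92 and 5.91 RPKM. The 2 genes named hbae1, which share reads, were at 76.0 and 60.8 RPKM and at 63.9 and 53.6 RPKM. Other red cell markers were below the globins, slc4a1a at 2.2 and 3.04 RPKM, alas2 at 0.791 and 1.58 RPKM and gata1a at 0.252 and 0.506 RPKM with shared reads. Endothelial genes were moderate in 19 of 22 members, with fli1a at 13.7 and 14.8 RPKM, cdh5 at 11.5 and 10.4 RPKM, kdrl at 3.13 and 3.42 RPKM, tie1 at 2.29 and 3.0 RPKM and kdr at 2.01 and 1.98 RPKM. Leukocyte genes reached 1 RPKM in both libraries in 8 of 18 members (44.4%), under the 60.7% of all genes. Among them were lyz at 7.53 and 11.2 RPKM and the macrophage gene mpeg1 at 3.59 and 3.48 RPKM. The actin bundler lcp1, with shared reads, was at 5.94 and 3.75 RPKM and the neutrophil enzyme mpx at 0.47 and 1.22 RPKM. The pan-leukocyte gene ptprc was at 0.345 and 0.289 RPKM.

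Muscle genes had a median of 3.37 RPKM, and a pair of heart genes among them came almost wholly from replicate 2. Of 30 members, 20 were at 1 RPKM or more in both libraries, a share of 66.7% against 60.7% of all genes, and 19 of 23 with a mean of at least 1 RPKM were higher in replicate 2. The list was led by actc1b, with shared reads, at 15.3 and 20.3 RPKM. Among skeletal markers, tnnt3b stood at 12.1 and 12.4 RPKM, mylz2 at 8.22 and 15.3 RPKM and ckma at 4.63 and 5.54 RPKM. The muscle factor myod1 was at 3.55 and 5.63 RPKM, acta1b at 3.25 and 5.78 RPKM and myhz2 at 1.87 and 2.81 RPKM, all 3 with shared reads, and mylz3 at 3.41 and 3.7 RPKM. The cardiac genes tnnt2a and myl7 were at 0.310 and 4.31 RPKM and at 0 and 4.25 RPKM, the latter from 0 and 92 reads. The ventricular myosin gene vmhc, with shared reads, was found in both, at 2.89 and 6.59 RPKM.

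Genes that pattern the brain and spinal cord divided in the opposite way. Of 32 members, 10 were at 1 RPKM or more in both libraries, 12 mixed and 10 low, with a median of 2.1 RPKM in replicate 1 and 0.423 RPKM in replicate 2. fezf2, a forebrain factor, was at 40.2 and 31.5 RPKM and gbx2 at 28.7 and 15.0 RPKM. The forebrain gene emx3 and the hindbrain gene egr2b, the latter with shared reads, were under 1 RPKM in both, as was phox2a. dlx2a, of the forebrain, was at 5.25 and 5.06 RPKM.

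Of the 12 mixed members, 7 were Hox genes, which pattern hindbrain, spinal cord and trunk. Over all 30 Hox genes with a level, set apart after the values had been seen, the summed level was 75.6 RPKM in replicate 1 and 6.68 RPKM in replicate 2, a ratio of 11.3. In replicate 1, 17 of them reached 1 RPKM, against 1 in replicate 2, and 25 of 30 were higher in replicate 1. hoxb5a was at 5.22 and 0.213 RPKM, hoxb3a at 17.5 and 1.83 RPKM with shared reads, and hoxb4a at 3.39 and 0 RPKM from 106 and 0 reads. hoxa2b, at 0.896 and 0.957 RPKM, was alike in both. Without the 7 whose reads are shared, 23 Hox genes gave a summed level of 56.4 against 4.17 RPKM. The motor neuron gene mnx1 was at 0.272 and 0.139 RPKM. Synapse, ganglion cell and amacrine genes were also mostly higher in replicate 1. So were bipolar (21 of 21), horizontal (8 of 10) and photoreceptor outer segment genes (19 of 25) with a mean of at least 1 RPKM. Cone phototransduction genes with such a mean were not, with 5 of 13 higher in replicate 1. The part of tissue with Hox transcripts in the levels of any of these lists was not tested.

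Genes of more distant tissues were near the floor of the measurement. Among 18 liver, gut and pancreas genes, 3 were at 1 RPKM or more in both libraries, apoa1 at 3.61 and 1.92 RPKM, zgc:193613 at 2.41 and 3.38 RPKM and fabp2 at 1.24 and 1.40 RPKM. pdx1, a pancreas factor, was at 0.847 and 0.567 RPKM, foxa3 at 0.422 and 0.827 RPKM, ela2 at 0.262 and 0 RPKM and fabp10a, a liver protein gene, at 0.0729 and 0.130 RPKM. In the germ line list, 13 of 14 were low or not detected, the markers dazl, nanos3 and vasa all under 1 RPKM. buc and cel.2 had 0 reads in both libraries, which allows at most 0.0441 and 0.0394 RPKM for buc and 0.0767 and 0.0685 RPKM for cel.2. Neural crest and myelinating glia genes were low in 8 of 12 members. There olig2, which retinal progenitors also transcribe, stood apart at 51.6 and 54.4 RPKM, while sox10 was at 5.36 and 4.91 RPKM, mpz at 0.825 and 0.772 RPKM and mbp, with shared reads, at 0.0704 and 0.00262 RPKM.

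The 81 defining markers with a level were those of the retinal lists and the cell cycle list. Their order ran from pcna, vsx1, neurod4, pax6a and crx at the top to grk7a, cabp5b, prph2a and opn1mw1 at the bottom. Neighbours in this order were mostly not separable. In 9 of 80 neighbouring pairs the lowest library of the upper gene lay above the highest library of the lower gene. Among these gaps was a very slight one between sox2 and rho, at 62.8 against 62.7 RPKM. Another lay between gnat2 and prph2b, at 1.69 against 1.43 RPKM. The upper ranks held cell class factors beside cell cycle and pigment genes. Among these markers rho, at position 25, was the highest of the rod and cone phototransduction lists. The beta subunit genes gnb3a, gnb1b and gnb1a of those lists, which were not among the markers, were higher than rho in each library.

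Many retinal genes exist in zebrafish as a pair of copies, a and b, and 1 member of a pair usually carried most of the transcript. Pairs were formed here from symbols that differ only in a final a or b. They therefore include some separate genes that are not copies, such as tfap2a with tfap2b and aurka with aurkb. Of 83 such pairs on the lists, 57, with tfap2 and aurk among them, did not share reads with other genes. In 49 of the 57 the libraries of the members did not overlap. The larger member was a median of 3.18 times the smaller, 12 pairs were over 10-fold apart and 20 under 2-fold. Neither letter dominated, with a higher in 24 pairs and b in 33. The widest gap was in a G-protein subunit. By the means gng13b, at 258 and 150 RPKM, was 2545 times gng13a, at 0.0685 and 0.0918 RPKM. Copy gng13a was near the floor, and its ratio to gng13b was 0.000266 in replicate 1 and 0.000611 in replicate 2, so this fold is rough. fabp7a was 368 times fabp7b. The glutamate transporter slc1a2b was 337 times slc1a2a, the lens gene cryba1b 164 times cryba1a, the endothelial gene plvapb 118.8 times plvapa, and gnb3a was 114 times gnb3b, at 280 and 129 against 1.27 and 2.32 RPKM.

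Transcription factor pairs included some of the most even ones. tbx2a was at 77.0 and 70.7 RPKM and tbx2b at 78.4 and 89.6 RPKM, and six3a at 47.6 and 36.3 RPKM against six3b at 55.6 and 50.2 RPKM. rxrga and rxrgb were at 27.0 and 24.0 RPKM and at 29.8 and 25.8 RPKM, and their ranges overlapped. Other factor pairs were unequal: six6b was 9.30 times six6a, sox4a 9.07 times sox4b, mitfa 6.2 times mitfb and pax6a 1.76 times pax6b. The pax6 order turned when the most abundant transcript stood for each gene, with pax6a at 45.1 and pax6b at 57.7 RPKM on average. For lhx1 the a copy was 14.6 times the b copy.

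**Figure D5:**
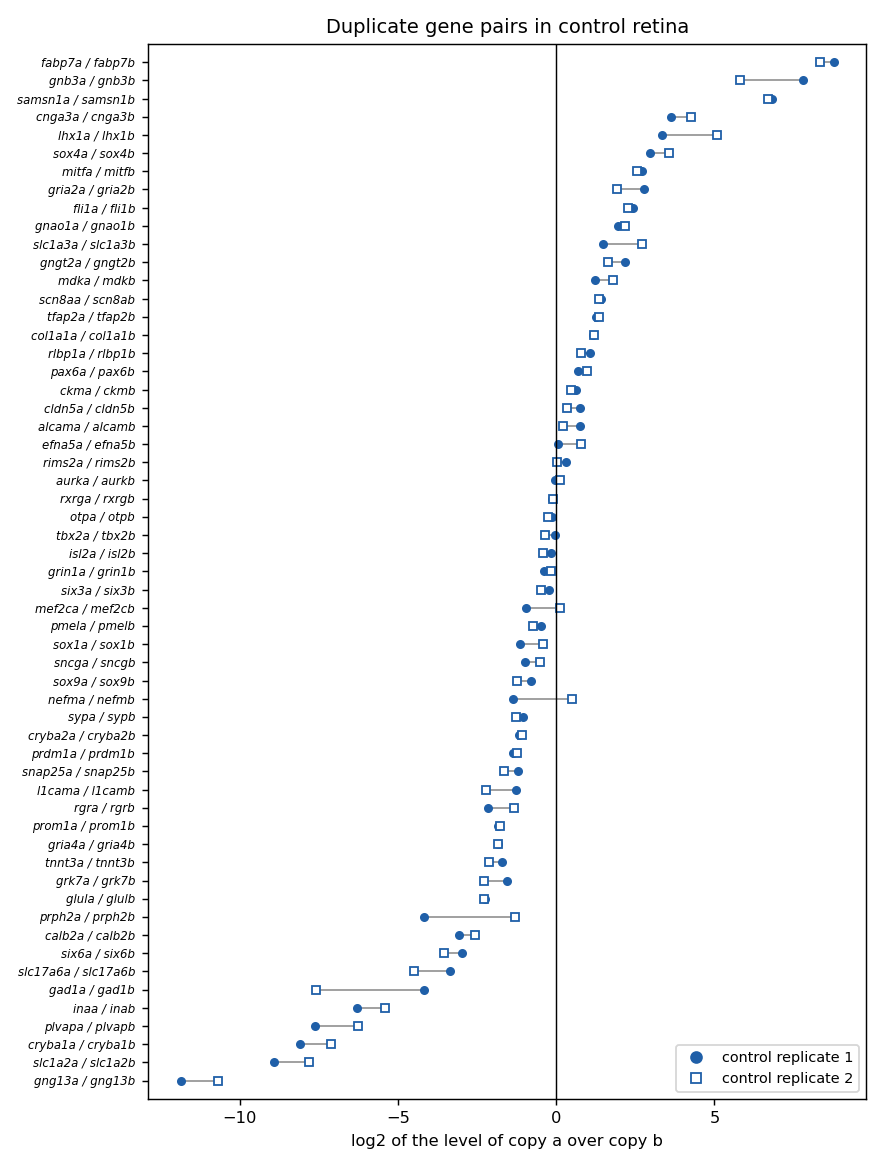
Log2 ratio of member a to member b for the 57 pairs of symbols ending in a and b that do not share reads. Control replicate 1 (filled circles) and replicate 2 (open squares) are joined by a line. Some pairs, such as tfap2 and aurk, are separate genes rather than copies. The ratios reach from fabp7 on the side of copy a to gng13 on the side of copy b, and the libraries lie apart most visibly in gad1, prph2, gnb3 and nefm.

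At a mean of at least 10 RPKM, the 5 widest gaps each way between the control libraries were not in retinal class genes. Below that mean some amacrine genes lay wider apart, such as sst1.1 at 1.70 and 0.0508 RPKM and vip at 2.13 and 0.286 RPKM. Among genes with a symbol and a mean of at least 10 RPKM, those highest in replicate 1 relative to replicate 2 were slc16a9b (29.5 and 6.54 RPKM), DDIT3 (31.7 and 8.34 RPKM), si:rp71-1h20.2 (16.8 and 4.62 RPKM), ccdc55 (102 and 28.8 RPKM) and arrdc3b (31.9 and 9.20 RPKM). DDIT3 encodes a transcription factor of the stress response of the endoplasmic reticulum. Those highest in replicate 2 were pvalb5 (10.1 and 42.0 RPKM), capn3 (5.67 and 20.1 RPKM), si:ch211-66k16.20 (5.01 and 16.5 RPKM), insig1 (11.6 and 35.1 RPKM) and cyp1a (13.8 and 40.4 RPKM). insig1 holds back cholesterol synthesis and cyp1a is induced through the aryl hydrocarbon receptor. Of 6730 genes at that mean, 158 (2.35%) were over 2-fold apart, 123 of them higher in replicate 1. Of the 792 abundant genes, 7 were over 2-fold apart, all higher in replicate 1.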

How the data were processed

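Poly-A RNA of control retinas was sequenced, and 2 control libraries were analysed. The deposited file names point to alignment with bowtie by the authors against the cDNA set of Ensembl release 66. No version, setting or genome build is given in the sources used here. Per the file headers, the deposited tables hold whole counts of hits per transcript and estimated counts, in which every read is shared out among its transcripts. The authors also deposited a score per transcript, which equals 1000 times the RPKM of the hits of both mates. Recomputed, 98.8% to 99.7% of 43156 values per library came out within 1 unit.

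Transcript lengths were solved from these scores over all 4 libraries, so they were not checked independently. The estimated counts of 1 mate, as deposited, were divided by length and by the library's total and summed per gene with Python 3.11.15, pandas 2.3.3 and numpy 2.4.6, with scipy 1.17.1 for rank correlations. The calculation was tested on simulated data. Of 26355 genes, 1849 had no length; their transcripts and others without a length held 0.00493% and 0.0105% of the reads. Symbols came from the authors' table for 23856 genes and from a reference list for 328, and 322 had none. Reads of a gene counted as shared where its split reads were under 0.9 of the full hits of its best transcript. Limits set from 3 reads cover counting error only.

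Members and lists were chosen with earlier results of these data known. Of 798 symbols in 27 lists, 676 matched a gene with a level, 75 names were not matched, 23 were known names not among the genes of the files used here, 19 had no length and 5 were the same gene as another. A gene can be on several lists. Genes were named by a rule from the 25 highest, each list's defining markers, 4 highest members and members at 0, the visual opsins and the 5 genes farthest apart in each direction; other genes, the division into transcription factors and others, and the Hox and lens groups were chosen after values were seen. No test was run. Alternatives changed the splitting of reads, the transcript that stands for a gene, the scale, the limits and the library used, and the use of both mates was added after seeing the data. Results for some of the genes named by the rule are not reported here.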

Additional observations from a re-analysis of the deposited data

How the results depend on the processing

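No paired analysis was possible because the levels come from no test and from 1 group. The number of abundant genes, 792 as reported, was 523 when the most abundant transcript stood for a gene, 1246 with levels scaled as TPM, 1587 at a limit of 50 RPKM and 385 at 200 RPKM. With 1 library left out, genes not detected numbered 558 to 940 instead of 271, and brain and spinal cord members at 1 RPKM or more 10 to 22, the higher number being that of replicate 1 alone. Neural crest, Schwann cell and oligodendrocyte members at 1 RPKM or more rose from 3 to 5, and so did non-visual and pineal opsins, both with levels scaled as TPM and at a limit of 0.5 RPKM. Liver, gut and pancreas members fell to 1 at a limit of 2 RPKM. Genes over 2-fold apart numbered 1164 at a mean of at least 1 RPKM and 158 at a mean of at least 10 RPKM. The order of the list medians stayed close to that reported (Spearman 0.965 to 1 over 27 lists). The medians themselves were 0.286 to 1.43 times those reported without control replicate 1, 0.585 to 1.42 times without control replicate 2 and 0.482 to 2.83 times with each hit counted in full. Of 228 levels of named genes, 135 moved by over 1.5 times with each hit counted in full and 105 with the most abundant transcript. Depth limits the genes under 1 RPKM.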

Other observations

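Histone genes with poly-A transcripts were among the abundant genes. The replacement core histone genes h3f3a and h3f3d were at 1722 and 2107 RPKM and at 711 and 812 RPKM, higher in control replicate 2. The linker histone genes HIST1H1A and H1F0 were at 1423 and 728 RPKM and at 1075 and 484 RPKM, higher in control replicate 1. Other core histone genes were not all on the same side, with hist2h2l at 54.5 and 36.4 RPKM and h2afv at 325 and 391 RPKM. h2afy2, with shared reads, was at 103 and 91.3 RPKM. Among 31 histone genes, 8 were abundant and 12 low or not detected. Tubulin genes build the microtubules of spindles and axons. Together with the tubgcp genes of the gamma-tubulin complex, they took 0.787% and 0.899% of the split reads over 23 genes. The beta tubulin gene tubb2c was highest at 1127 and 1203 RPKM, and the alpha tubulin gene tuba8l4, with shared reads, stood at 846 and 1106 RPKM. These groups were chosen after their values had been seen.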
